A study of Mus musculus with 2 samples.

Results

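The 10 genes described here are immediate early genes chosen by name, and all 10 were among the 25556 genes of the brainstem count matrix. Immediate early genes are transcribed within minutes of a stimulus from promoters that are already poised, without new protein synthesis. In neurons the usual stimulus is calcium entry through synaptic receptors and voltage-gated channels, which is why their transcripts are read as a trace of recent firing. In endothelial cells, fibroblasts and glia the same genes answer growth factors, shear stress and handling of the tissue. Fos proto-oncogene (Fos), FosB (Fosb), Jun proto-oncogene (Jun) and JunB (Junb) encode the subunits of the transcription factor AP-1. Early growth response 1 (Egr1) is a zinc finger factor, neuronal PAS domain protein 4 (Npas4) a factor that answers calcium almost solely in neurons, and nuclear receptor subfamily 4 group A member 1 (Nr4a1) an orphan nuclear receptor. Activity-regulated cytoskeleton-associated protein (Arc) acts on AMPA receptors at synapses, immediate early response 2 (Ier2) is a nuclear protein, and dual specificity phosphatase 1 (Dusp1) inactivates MAP kinases.

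The transcripts were measured by single-nucleus RNA sequencing of flash-frozen brainstem from 1 wild-type (WT) and 1 heterozygous (HET) mouse. Both were females of postnatal day 41 on a C57Bl6 background, left untreated and perfused under a barbiturate before dissection. The HET mouse carried the Scn1aA1783V/WT knock-in, a missense allele that removes the function of 1 copy of the sodium channel subunit Nav1.1 and models Dravet syndrome, a childhood epilepsy. The allele was switched on by Sox2-Cre and therefore in the whole body, and a seizure before sampling was neither required nor recorded in the sources used here. Because each genotype was 1 library, no difference between WT and HET has a replicate check, no p-value is given, and genotype cannot be told apart from the animal, the dissection or the library. The 95% intervals are exact Poisson limits for a level and exact conditional limits for a ratio, and they cover counting error only. Levels are unique molecular identifiers (UMIs) of a gene per 1000000 UMIs of the same nuclei (CPM), and differences are log2 of the HET level over the WT level, with HET higher above 0.

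After the authors' filters there were 9259 WT and 9022 HET nuclei with a median of 5456 and 5646 UMIs, and 23 cell barcodes occurred in both libraries. Scn1a itself was at 430 CPM in WT and 493 CPM in HET neuronal nuclei, and transcript counts cannot show a missense allele. The authors' 16 clusters were grouped as neuronal (9 clusters, 6118 WT and 5393 HET nuclei), glial (oligodendrocytes, astrocytes and microglia, 2550 and 3322), vascular (endothelial cells and fibroblasts, 354 and 256) and ependymal (237 and 51). The cluster named microglia went against its name, since of its nuclei 211 carried the reference label neurons and 108 the label microglia. In the fibroblast cluster, 40 nuclei had the reference label fibroblasts, 111 the label neurons and 95 the label astrocytes, although its 5 fibroblast markers summed to 871 CPM in WT and 1187 CPM in HET. The ribosomal protein share of UMIs had a median of 0.696% in WT and 0.407% in HET, and the mitochondrial share 0.343% and 0.458%. Marker transcripts of the choroid plexus (5 genes) summed to 266 CPM in WT and 58.0 CPM in HET neuronal nuclei. These values moved with genotype and their part in the results was not tested.

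The 10 genes are short and widely spread over the genome, and 8 of them span less than 10 kb in the GENCODE annotation of mm10 (GRCm38). Fos lies on chromosome 12 from 85473890 to 85477273, Jun on chromosome 4 from 95049034 to 95052222, Junb on chromosome 8 from 84974484 to 84978718 and Nr4a1 on chromosome 15 from 101254269 to 101274795. The annotated span of Dusp1, on chromosome 17 from 26505590 to 26562128, covers other genes, Jun overlaps an antisense transcript and Junb the end of a gene on the opposite strand. The strand setting of the counting is not given in the sources used here, so reads of these neighbours may be included. For 7 of the 10 genes a RefSeq promoter sequence (GRCm38.p6) was matched, and the 250 bases before the start site were searched on both strands for binding motifs of the factors that are known to drive this class of genes. The half-site of the cAMP response element, TGACG, was found in 6 of these 7 promoters and in 17.9% of 27025 mouse promoters of the same length. The full element, TGACGTCA, which contains the half-site, was found in Dusp1 alone and in 1.62% of all promoters. The AP-1 motif TGANTCA was in 0 of 7 (6.87% of all), the CArG box of serum response factor in 0 of 7 (1.40%), the EGR motif GCGNGGGCG in 2 of 7 (Fosb and Nr4a1, 4.65%) and TATAAA in 1 of 7 (Fos, 13.0%). Matches are descriptions of letters, and a motif outside this window would not be seen.

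To show what the half-site looks like in place, the windows of the genes with the most distinct patterns below are printed 5′ to 3′ along the gene, with TGACG or its reverse complement CGTCA in capitals. Fos (chr12:85473640-85473889, plus strand) has 2 half-sites, Junb (chr8:84978749-84978998, minus strand) has 1 and Nr4a1 (chr15:101266596-101266845, plus strand) has 4, while Jun (chr4:95052223-95052472, minus strand) has none. None of the 4 windows overlaps an annotated exon, and that of Nr4a1 lies inside the gene's longer GENCODE span.
Fos: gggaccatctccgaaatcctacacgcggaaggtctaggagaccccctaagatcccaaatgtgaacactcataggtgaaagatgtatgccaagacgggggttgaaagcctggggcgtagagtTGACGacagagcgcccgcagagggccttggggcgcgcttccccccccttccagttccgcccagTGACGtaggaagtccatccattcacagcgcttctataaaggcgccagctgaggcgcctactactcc
Junb: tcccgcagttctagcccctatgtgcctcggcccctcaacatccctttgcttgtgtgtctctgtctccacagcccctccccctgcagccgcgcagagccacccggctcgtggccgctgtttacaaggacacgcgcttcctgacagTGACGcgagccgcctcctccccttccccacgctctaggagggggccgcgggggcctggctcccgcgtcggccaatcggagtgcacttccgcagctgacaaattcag
Nr4a1: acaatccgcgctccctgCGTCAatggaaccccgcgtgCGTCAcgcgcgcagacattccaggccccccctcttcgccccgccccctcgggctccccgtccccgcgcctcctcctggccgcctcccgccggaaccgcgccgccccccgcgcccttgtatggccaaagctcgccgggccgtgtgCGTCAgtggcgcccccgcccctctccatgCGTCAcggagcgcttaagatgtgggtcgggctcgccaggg
Jun: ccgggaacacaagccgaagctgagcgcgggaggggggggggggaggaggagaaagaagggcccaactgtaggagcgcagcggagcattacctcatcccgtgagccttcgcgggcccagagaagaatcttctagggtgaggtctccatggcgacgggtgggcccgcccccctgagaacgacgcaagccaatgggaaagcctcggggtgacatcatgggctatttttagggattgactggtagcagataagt

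Each of the 10 genes had its own order of cell types, and that order was not simply neuronal first. In WT, 5 of the genes (Fos, Fosb, Junb, Egr1 and Nr4a1) were highest in the fibroblast cluster, 3 (Jun, Ier2 and Dusp1) in the endothelial cluster, Npas4 in neuron.6 and Arc in neuron.4. The first places were the same in HET except for Arc, highest in oligodendrocytes, and Npas4, highest in endothelial nuclei on 3 UMIs. Most neighbours in these orders had overlapping intervals. In WT the first place stood clear of the second for Npas4, Ier2 and Egr1, and in HET the fibroblast cluster stood clear of the next cluster for Fos, Fosb, Junb, Egr1 and Nr4a1.

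**Figure D1:**
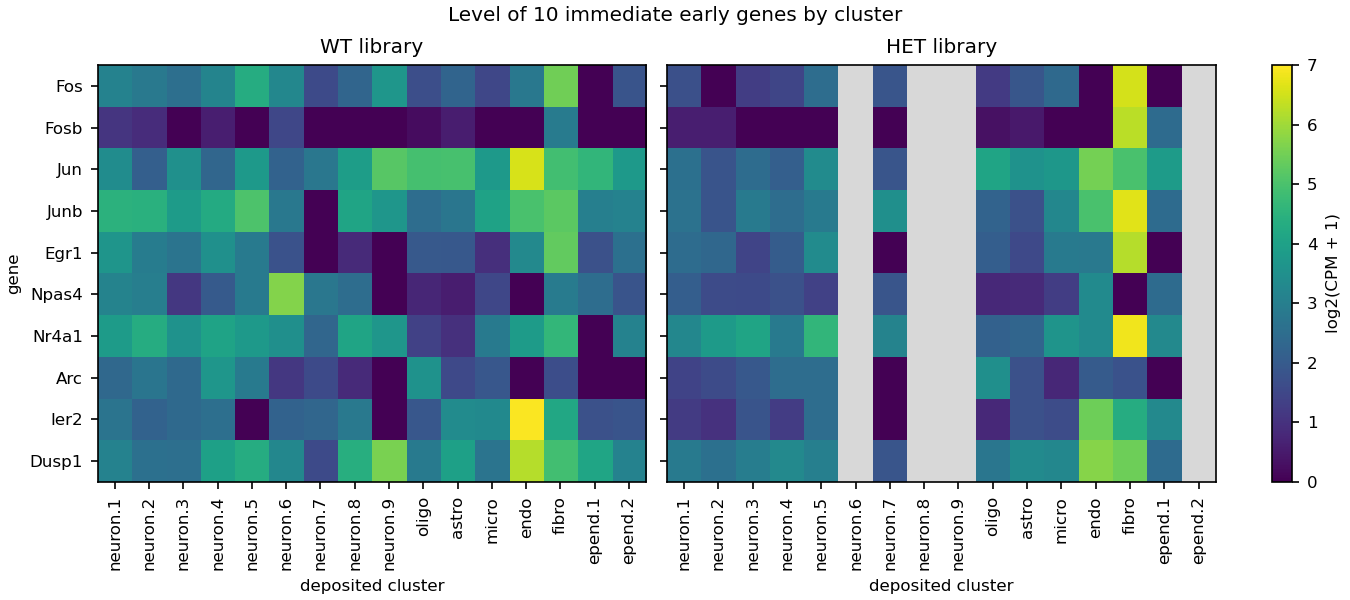
Level of each of the 10 genes (rows) in each of the 16 deposited clusters (columns) as log2(CPM + 1), with WT in one panel and HET in the other; grey marks clusters with fewer than 30 nuclei in that library. Jun, Ier2 and Dusp1 are brightest in the endothelial column, Fos, Fosb, Junb, Egr1 and Nr4a1 in the fibroblast column, and Npas4 in the neuron.6 column of WT.

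Among the AP-1 genes, Jun had a pattern apart from Fos, Fosb and Junb. The Jun level in WT was 94.7 CPM in endothelial nuclei (95% interval 72.9 to 121), 30.3 in astrocytes, 29.4 in oligodendrocytes, 28.3 in fibroblasts and 9.02 in neuronal nuclei. In HET it was 45.8, 10.8, 16.0, 31.0 and 4.88 CPM in the same order. Per UMI, Jun was thus lower in neurons than in glia in both libraries. The log2 ratio of neuronal over glial was -1.61 (-1.83 to -1.39) in WT and -1.56 (-1.84 to -1.27) in HET. Glial nuclei were shallower, and by nuclei Jun was spread about evenly. Glia held 28.5% of the Jun UMIs in WT and were 27.5% of the nuclei, against 37.0% and 36.8% in HET. Fos was higher per UMI in neurons than in glia of WT, at 7.30 CPM in neuronal and 2.54 CPM in glial nuclei (log2 ratio 1.52, 0.92 to 2.20). In HET the Fos levels were 2.10 and 1.93 CPM, a ratio whose interval included 0 (0.12, -0.53 to 0.84). Junb was at 20.6 CPM in neuronal, 6.18 in glial, 31.1 in endothelial and 37.0 in fibroblast nuclei of WT. Its values in HET were 5.22, 3.95, 30.6 and 103 CPM, so that the neuronal and glial levels lay close together there (log2 ratio 0.40, -0.05 to 0.88). Fosb was sparse, with 66 UMIs in all of WT and 58 in all of HET. In WT 92.4% of the Fosb UMIs were in neuronal nuclei, which were 66.1% of the nuclei, and in HET 55.2% were in the fibroblast cluster, which was 1.49% of the nuclei.

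Npas4 was the most neuronal of the 10 genes by the share of its UMIs found in neurons. In WT 507 of 520 Npas4 UMIs (97.5%) and in HET 159 of 173 (91.9%) were in neuronal nuclei. The Npas4 level was 8.55 CPM in neuronal and 0.772 CPM in glial nuclei of WT (log2 ratio 3.47, 2.42 to 4.79), against 2.98 and 0.840 CPM in HET (1.83, 0.91 to 2.92). In endothelial nuclei of WT it was not detected, which allows up to 4.44 CPM. Within the neurons a single small cluster stood out for it. The cluster neuron.6, led by Ano2, Htr5b, Pou4f1 and Cdk6, held 86 Npas4 UMIs in WT, a level of 51.4 CPM (41.1 to 63.5), and 46 of its 120 nuclei (38.3%) had at least 1. The other neuronal clusters of WT were at or below 7.83 CPM. Fos in neuron.6, at 8.37 CPM, and Nr4a1, at 10.2 CPM, were close to their levels in neuron.1 (7.52 and 13.3 CPM), so the high level was seen for Npas4 and not for these. HET had 5 neuron.6 nuclei and no Npas4 UMI in them, which is too few for a comparison.

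Egr1 and Nr4a1, like Fos and Junb, had a high fibroblast level and a neuronal level above the glial one in WT. The WT fibroblast level of Nr4a1 rested on 11 UMIs. The Egr1 level in WT was 10.4 CPM in neuronal, 2.65 in glial, 8.88 in endothelial and 39.2 in fibroblast nuclei. In HET it was 4.30, 3.36, 6.11 and 74.0 CPM. For Nr4a1 the WT levels were 13.5, 1.99, 13.3 and 23.9 CPM and the HET levels 9.20, 4.54, 9.17 and 115 CPM. The log2 ratio of neuronal over glial Nr4a1 was 2.77 (2.10 to 3.53) in WT and 1.02 (0.61 to 1.45) in HET, so that it kept an interval above 0 in both libraries. For Egr1 the ratio was 1.98 (1.39 to 2.63) in WT, and in HET it was 0.36 with an interval that included 0 (-0.13 to 0.88).

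The product of Arc is best known from excitatory synapses of the forebrain. Per UMI, Arc was higher in oligodendrocytes than in neurons of the brainstem in both libraries. Oligodendrocyte nuclei were shallower, with a median of 2738 UMIs in WT against 7729 in neuronal nuclei. By nuclei, Arc was found in 3.62% of oligodendrocytes and 3.32% of neurons in WT, and in 3.32% and 1.89% in HET. In WT there were 64 Arc UMIs in oligodendrocytes, at 10.95 CPM (8.44 to 13.99), and 256 in neuronal nuclei, at 4.32 CPM (3.81 to 4.88). In HET there were 81, at 10.3 CPM (8.16 to 12.8), and 112, at 2.10 CPM (1.73 to 2.53). Of the neuronal clusters, neuron.4 held the most Arc per UMI, at 11.9 CPM in WT and 4.67 CPM in HET. Transcripts of neurons that leak into other droplets reach oligodendrocytes at a fraction of their neuronal level. Rbfox3 and Snap25, pan-neuronal transcripts, were in oligodendrocytes at 6.94% and 20.6% of their neuronal level in WT and at 13.3% and 21.0% in HET. The corresponding values of Arc were 254% and 488%, and those of Jun 326% and 327%, above the neuronal level itself. Fos (30.5% and 60.3%), Junb (22.4% and 70.5%) and Egr1 (27.9% and 76.7%) lay above those of Rbfox3 and Snap25, and Npas4 (8.0% and 25.5%) and Nr4a1 (11.4% and 38.6%) lay near or between them in WT and above them in HET. The vesicular transporters Slc17a6 (56.2% and 48.7%) and Slc32a1 (77.9% and 90.5%), which oligodendrocytes should lack, spanned a range that reached above those of Fos, Junb, Egr1, Npas4 and Nr4a1 in both libraries. Fosb (16.6% and 61.4%, on 1 and 2 UMIs) and Ier2 (51.9% and 52.6%) were also below Slc32a1, Dusp1 was close to it (80.0% and 86.8%), and Arc and Jun were above all 4 of these comparison genes. These percentages compare levels per UMI, and oligodendrocyte nuclei held fewer UMIs than neurons. In WT, oligodendrocytes were 19.1% of the nuclei and held 19.5% of the Arc and 19.6% of the Jun UMIs. In HET they were 26.4% of the nuclei and held 40.1% of the Arc and 27.3% of the Jun UMIs. The part of free RNA in the oligodendrocyte levels was not tested.

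Ier2 and Dusp1 had their highest levels in the endothelial cluster in both libraries. The Ier2 level was 124 CPM in endothelial nuclei of WT (99.1 to 154) against 17.4 CPM in fibroblasts, 9.46 in astrocytes and 5.28 in neuronal nuclei. In HET it was 42.8 CPM (23.4 to 71.8) in endothelial nuclei, 19.1 in fibroblasts, 2.31 in astrocytes and 1.45 in neuronal nuclei. For Dusp1 the endothelial level was 74.0 CPM in WT and 52.0 CPM in HET, against fibroblast levels of 28.3 and 43.0 CPM and neuronal levels of 7.91 and 6.57 CPM. In HET these endothelial and fibroblast levels rested on 17 and 18 UMIs for Dusp1 and on 14 and 8 for Ier2. Neither gene was higher in endothelial nuclei than in fibroblasts of HET beyond its interval. With the glial clusters summed, neither gene differed between neurons and glia beyond its interval. The log2 ratios were 0.06 (-0.39 to 0.54) in WT and 0.20 (-0.61 to 1.10) in HET for Ier2, and -0.05 in both for Dusp1. The sum joined unlike clusters, and the neuronal level of each gene lay between those of oligodendrocytes and astrocytes in both libraries. In WT oligodendrocytes and astrocytes Ier2 was at 2.74 and 9.46 CPM and Dusp1 at 6.33 and 14.7 CPM. In HET the values were 0.761 and 2.31 CPM for Ier2 and 5.71 and 9.22 CPM for Dusp1.

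Set side by side over the 10 genes, the neuronal level was above the glial level by at least 2-fold for 6 genes in WT (24.8% of all genes were) and for 2 in HET (23.3%). It was below by at least 2-fold for 1 gene in WT (15.6%) and 2 in HET (15.8%). The median log2 ratio of neuronal over glial was 1.63 in WT and 0.28 in HET, with -0.47 to 0.88 as the medians of the interval bounds in HET. With the UMIs of the 10 genes summed in place of a median, the ratio was 0.48 in WT and turned to -0.19 in HET. Against the vascular clusters, the neuronal level was lower by at least 2-fold for 6 of the 10 in WT (26.5% of all genes) and for 8 in HET (24.7%), and higher for 2 in WT (21.5%) and 0 in HET (16.9%). The median log2 ratio of neuronal over vascular was -1.19 in WT and -3.15 in HET. With the endothelial cluster alone as the vascular group the WT median was 0.13, so its sign rested on the fibroblast cluster.

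The comparison of HET with WT asks how genes that serve as a trace of activity were expressed in a mouse with reduced Nav1.1 function, a channel that carries the sodium current of many inhibitory neurons. Over all nuclei the log2 ratios ran from -1.88 for Ier2 to -0.10 for Fosb, 9 of the 10 intervals were below 0, and 5 genes were lower in HET by at least 2-fold (4.94% of all genes). The exception was Fosb, whose interval included 0 (-0.63 to 0.43). In neuronal nuclei all 10 genes were lower in HET, each with an interval below 0. The difference was at least 2-fold for 7 of them (4.21% of all genes were lower by that much), and the median log2 ratio was -1.30, with -1.64 to -0.88 as the medians of the interval bounds. The median over all 21155 genes with at least 20 UMIs was -0.08. Over genes that span less than 10 kb, as 8 of the 10 do, it was -0.27, against -0.04 over longer genes. The 8 members below 10 kb had log2 ratios from -1.98 to -0.89, each further from 0 than the median of short genes. The 2 with longer annotated spans, Nr4a1 and Dusp1, had the smallest differences. Their RefSeq promoters lie inside these spans, so their place among longer genes depends on the annotation, and a link to length was not tested.

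**Figure D2:**
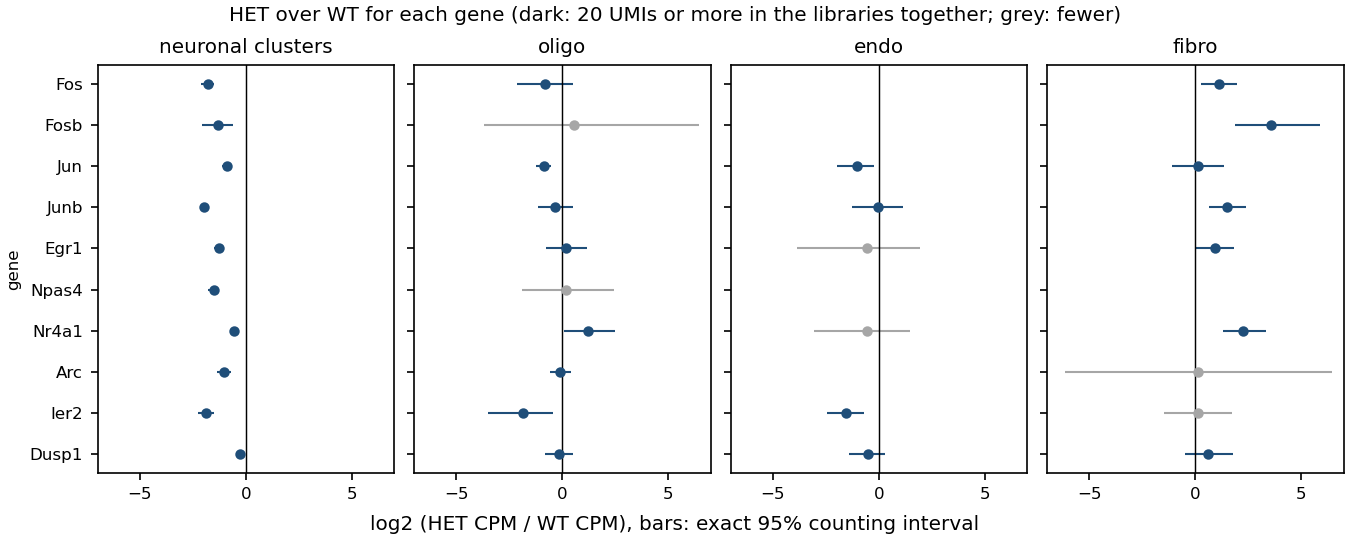
Log2 of the HET level over the WT level of each of the 10 genes with its 95% counting interval, in neuronal nuclei, oligodendrocytes, endothelial cells and fibroblasts; dark points have at least 20 UMIs in the 2 libraries together, grey points fewer, and no point is drawn where a count was 0. All 10 neuronal points lie below 0, from -1.98 for Junb to -0.27 for Dusp1, and the fibroblast points of Fos, Fosb, Junb, Egr1 and Nr4a1 lie above 0.

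Of the AP-1 genes in neurons, Junb differed most. There were 1223 Junb UMIs in WT (20.6 CPM) and 278 in HET (5.22 CPM), a log2 ratio of -1.98 (-2.18 to -1.79). At least 1 Junb UMI was found in 12.6% of WT and 4.56% of HET neuronal nuclei, and after thinning each nucleus to 1000 UMIs in 2.12% and 0.509%. Fos had 433 UMIs in WT (7.30 CPM) and 112 in HET (2.10 CPM), a log2 ratio of -1.80 (-2.11 to -1.49), in 4.45% and 1.63% of the nuclei. Fosb, whose short splice form accumulates during long-lasting activity, had 61 UMIs in WT and 22 in HET (-1.32, -2.09 to -0.59). The counts do not separate that form from the full-length transcript. Jun had the smallest difference of the AP-1 genes, with 535 UMIs at 9.02 CPM and 260 at 4.88 CPM (-0.89, -1.11 to -0.67).

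The other transcription factors covered the same range. Npas4 had a log2 ratio of -1.52 (-1.78 to -1.26), and Egr1, at 618 and 229 UMIs, one of -1.28 (-1.50 to -1.06). Nr4a1 had 803 UMIs in WT (13.5 CPM) and 490 in HET (9.20 CPM), a log2 ratio of -0.56 (-0.72 to -0.39), and its interval did not meet that of Npas4 or Egr1. Without neuron.6, neuron.8 and neuron.9, which held 120, 44 and 35 WT nuclei but 5, 9 and 2 HET nuclei, the neuronal median was -1.31. Of the effectors, Ier2 was at 5.28 and 1.45 CPM (-1.87, -2.25 to -1.51) and Arc at 4.32 and 2.10 CPM (-1.04, -1.37 to -0.71). Dusp1 was at 7.91 and 6.57 CPM (-0.27, -0.47 to -0.06), the smallest difference among the 10.

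The difference was not carried by 1 neuronal cluster. In neuron.1, which held 5032 WT and 4079 HET nuclei, all 10 genes were lower in HET with intervals below 0, 7 of them by at least 2-fold (4.1% of all genes), from -2.08 for Ier2 to -0.25 for Dusp1. In neuron.4, 7 genes had 20 UMIs and 5 were lower by at least 2-fold (4.64% of all genes), among them Junb at 18.3 and 4.67 CPM (-1.97, -2.77 to -1.19) and Fos at 7.90 and 1.75 CPM (-2.17, -3.53 to -0.91). In neuron.2, 4 of 7 genes were lower by at least 2-fold (5.31%). There Junb had 75 UMIs in WT and 5 in HET (20.9 and 2.52 CPM), and Fos had 22 UMIs in WT (6.12 CPM) and 0 in HET, which allows up to 1.51 CPM. In neuron.3 it was 2 of 4 genes (3.97%), and Nr4a1 pointed the other way there, at 10.9 CPM in WT and 16.1 CPM in HET (0.56, -0.23 to 1.41). The neuron.7 cluster, which carried serotonergic markers, had only 13 and 11 UMIs of the 10 genes in 46 and 33 nuclei.

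Among the 13 neuronal subclusters with at least 30 nuclei in each library, the summed level of the 10 genes was lower in HET in 12, with the interval below 0 in 10. The summed level ranged from 25.6 to 122 CPM in WT and from 24.1 to 80.1 CPM in HET. The exception was the subcluster that makes up neuron.7, at 25.6 and 28.3 CPM (log2 ratio 0.15, -1.16 to 1.42). The 3 subclusters of neuron.1 with the most nuclei were at 105, 91.8 and 83.5 CPM in WT and at 38.6, 36.7 and 37.8 CPM in HET. Gene by gene, Junb had an interval below 0 in 9 of the 13 subclusters, Fos and Egr1 in 7, Ier2 and Nr4a1 in 6, Arc and Npas4 in 5, Jun in 4, Dusp1 in 1 and Fosb in 0. Arc was lower in HET in all 13, but on at most 2 UMIs in each library in subclusters 12, 15, 24 and 30. No gene had an interval above 0 in any of the 13. The subclusters share their library and are not replicates of the genotype.

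**Figure D3:**
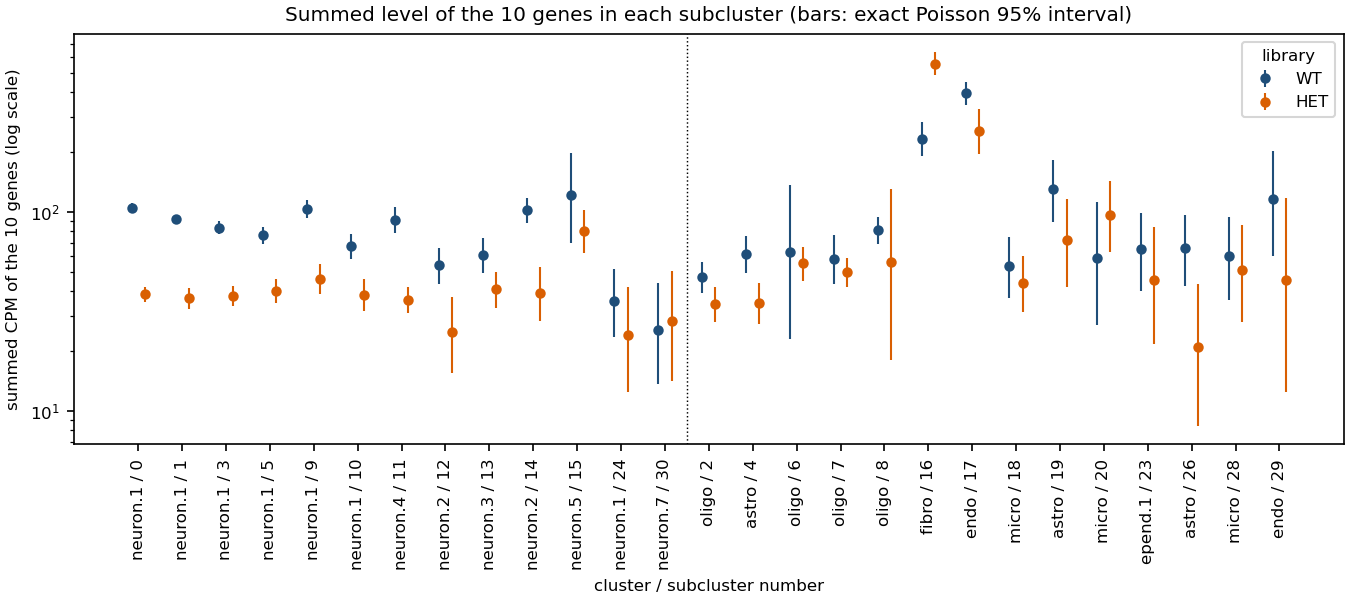
Summed level of the 10 genes in CPM (log axis) for each subcluster with at least 30 nuclei in each library, WT in blue and HET in orange with 95% Poisson intervals, neuronal subclusters on one side of the dotted line and the others on the other side. HET lies below WT in 12 of 13 neuronal subclusters and well above it in subcluster 16, the fibroblast cluster (233 and 556 CPM).

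In glial nuclei 8 of the 10 genes had 20 UMIs or more, and 6 of these were lower and 2 higher in HET. The glial median log2 ratio was -0.33, with -0.98 to 0.30 as the medians of the interval bounds. In these nuclei 1 gene was higher by at least 2-fold (4.05% of all genes) and 1 lower (3.45%). Jun, the gene that glia held most of, had 250 UMIs in WT (27.6 CPM) and 171 in HET (14.4 CPM). It was lower in oligodendrocytes (29.4 and 16.0 CPM, log2 ratio -0.88, -1.23 to -0.54) and in astrocytes (30.3 and 10.8 CPM, -1.49, -2.19 to -0.83). Ier2 was lower too, with 16 and 6 UMIs in oligodendrocytes (-1.85, -3.49 to -0.42) and 20 and 6 in astrocytes (-2.04, -3.64 to -0.67). Nr4a1 was the gene that was higher, with 18 UMIs in WT (1.99 CPM) and 54 in HET (4.54 CPM) over the glial clusters (1.19, 0.40 to 2.05). That sum includes the microglia cluster, whose pan-neuronal markers were at 9026 CPM in WT and 9888 CPM in HET. In neuronal nuclei these markers were at 13787 and 13561 CPM. In oligodendrocytes alone Nr4a1 had 9 and 28 UMIs (1.20, 0.08 to 2.47), in astrocytes 2 and 10. The oligodendrocyte level of Nr4a1 was 11.4% of the neuronal level in WT and 38.6% in HET, and the part of free RNA in this difference was not tested. Arc in oligodendrocytes, at 10.95 and 10.3 CPM, differed by less than its counting error (-0.09, -0.58 to 0.40), whereas in neurons it was 2.05-fold lower in HET. Oligodendrocyte subclusters were unevenly split between the libraries, with 39 WT and 827 HET nuclei in subcluster 6 and 825 and 35 in subcluster 8.

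In endothelial nuclei 4 genes had 20 UMIs, and 2 of these were lower in HET by at least 2-fold, where 14.4% of all genes were. Ier2 had 84 UMIs in WT and 14 in HET (124 and 42.8 CPM, log2 ratio -1.54, -2.47 to -0.71), and Jun 64 and 15 (94.7 and 45.8 CPM, -1.05, -1.96 to -0.22). Dusp1 was at 74.0 and 52.0 CPM with an interval that included 0 (-0.51), and Junb at 31.1 and 30.6 CPM. Fos had 4 UMIs in WT and 0 in HET, and Fosb 0 in both. The makeup of this cluster differed between the libraries. Of 222 WT nuclei 161 had the reference label endothelial cells, but of 122 HET nuclei only 48 did, and pan-neuronal markers summed to 1562 CPM in WT and 3304 CPM in HET. Among the nuclei that carried the label, the 10 genes summed to 415 and 362 CPM, against 352 and 199 CPM in the whole cluster. There Ier2 had a log2 ratio of -0.84 (-1.85 to 0.05) and Jun one of -0.14, and 0 of 4 genes passed 2-fold, (6.79% of all genes were higher and 13.1% lower by that much), so the endothelial difference was not detectable at this depth once the labels were required to match. Short genes were also lower in this cluster as a whole, with a median of -0.82 below 10 kb against 0.08 for longer genes.

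In the fibroblast cluster, with 132 WT and 134 HET nuclei, 5 of these genes were higher in HET with intervals above 0. The 10 genes together had 107 UMIs in WT (233 CPM, 191 to 281) and 233 in HET (556 CPM, 487 to 633). Of all their UMIs, this cluster held 1.73% in WT and 7.95% in HET. All 7 genes with 20 UMIs were above 0, 5 of them with intervals above 0 and 4 by at least 2-fold, where 5.18% of all genes were higher by that much. Nr4a1 had 11 UMIs in WT (23.9 CPM) and 48 in HET (115 CPM), a log2 ratio of 2.26 (1.29 to 3.35). Junb had 17 and 43 (37.0 and 103 CPM, 1.47, 0.63 to 2.38), Fos 20 and 39 (43.5 and 93.1 CPM, 1.10, 0.28 to 1.95) and Egr1 18 and 31 (39.2 and 74.0 CPM, 0.92, 0.04 to 1.84). Fosb had 3 UMIs in WT and 32 in HET (3.55, 1.87 to 5.90), spread over 3 and 12 nuclei, with 9 of the 32 in 1 nucleus. Jun, with 13 UMIs in each library, and Ier2, with 8 in each, were level, and Dusp1 was at 28.3 and 43.0 CPM (0.60). Npas4 had 3 UMIs in WT and 0 in HET, and Arc 1 in each. An interval below 0 in neurons together with one above 0 in fibroblasts was found for 5 of the 7 genes and for 1.34% of all genes with 20 UMIs in both. Of the 5, Fos alone reached 20 UMIs in the WT fibroblast cluster, and the others passed only with their HET counts. Fosb passed mainly through its 32 HET UMIs, 26 of them in nuclei with high doublet scores, so the count is not a test of direction. Pan-neuronal markers in this cluster were alike in the libraries, at 3021 and 3054 CPM, and the median mitochondrial share was 0.556% and 0.931%.

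The fibroblast cluster was also where the libraries differed in doublet score, a measure of how much a nucleus resembles a mixture of 2. Of its nuclei, 14 in WT and 77 in HET were among the 5% with the highest doublet scores of their library. Without these, 118 WT and 57 HET nuclei remained, and the 10 genes summed to 285 CPM in WT (231 to 348) and 461 CPM in HET (359 to 584). Fos was then at 47.0 and 127 CPM (1.43, 0.39 to 2.49) and Nr4a1 at 32.3 and 100 CPM (1.63, 0.41 to 2.90), so these were still higher in HET. Junb was not, at 41.2 and 33.4 CPM (-0.30, -2.13 to 1.25), and the intervals of Egr1 (0.68, -0.52 to 1.83) and Fosb (2.18, -0.04 to 4.81) included 0. Of the 3 genes with 20 UMIs, 2 were higher by at least 2-fold (6.59% of all genes). The WT nuclei with high doublet scores were at 83.9 CPM and the HET ones at 609 CPM. The summed level was higher in HET under each common reference label, at 567 and 975 CPM in the 17 and 23 nuclei labelled fibroblasts, 268 and 567 CPM in those labelled neurons and 114 and 381 CPM in those labelled astrocytes. In the nuclei labelled fibroblasts the intervals of the sums overlapped (383 to 810 and 751 to 1245 CPM). There Fos was at 189 and 213 CPM on 10 and 14 UMIs and Egr1 at 113 and 122 CPM, close in the libraries, while Nr4a1 was at 37.8 and 244 CPM on 2 and 16 UMIs and Junb at 56.7 and 168 CPM on 3 and 11. The whole vascular group followed this cluster, with a median log2 ratio of 1.08 (5 of 8 genes higher by at least 2-fold, 5.83% of all genes, and 1 lower, 11.2%), and turned to -0.15 without the nuclei of high doublet score.

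The 10 genes were unevenly spread over nuclei as well as over cell types. At least 1 of the 10 was found in 40.3% of WT and 27.2% of HET neuronal nuclei, at least 2 in 13.8% and 5.12%, and at least 3 in 5.12% and 1.28%. The last class, 313 WT and 69 HET nuclei, held 39.9% and 16.1% of the neuronal UMIs of these genes. Nuclei with 3 or more were deeper than others, with a median of 12194 and 14101 UMIs against 7729 and 8390 over all neuronal nuclei. After thinning to 1000 UMIs, the expected share with any of the 10 was 7.96% in WT and 3.91% in HET. In oligodendrocytes 17.7% and 13.5% of nuclei had at least 1 gene and 0.170% and 0.0840% had 3 or more. Endothelial nuclei had 3 or more in 7.21% and 2.46% and fibroblasts in 5.30% and 14.9%.

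**Figure D4:**
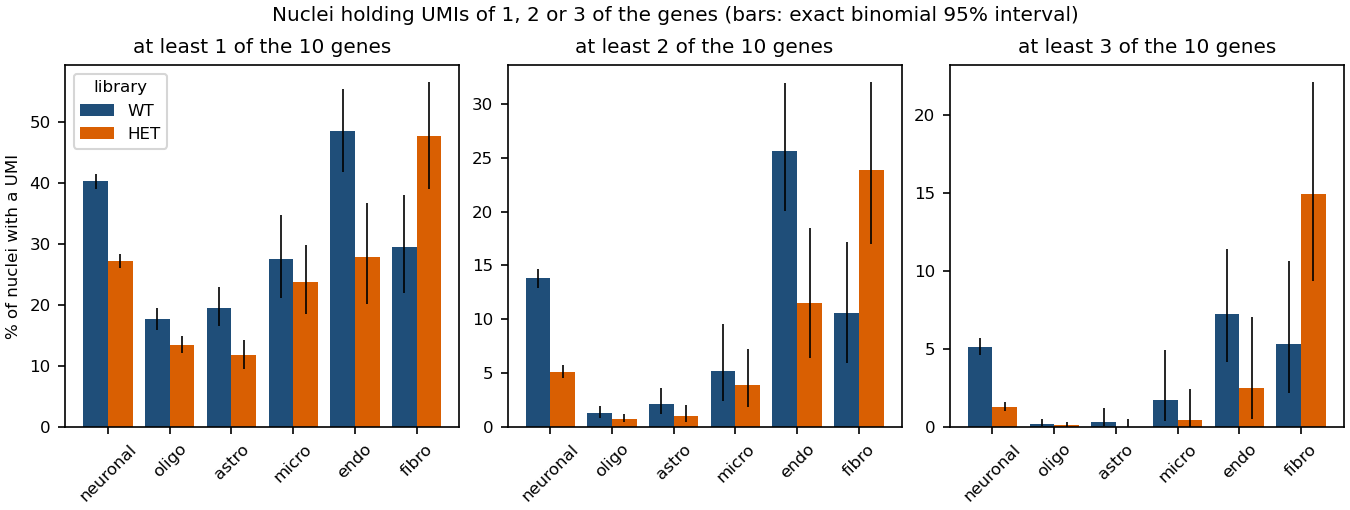
Percentage of nuclei with UMIs of at least 1, at least 2 and at least 3 of the 10 genes, by cell type, with WT and HET side by side and 95% exact binomial intervals. The HET share is below the WT share in neuronal nuclei at each step (1.28% against 5.12% for 3 or more) and above it in fibroblasts (14.9% against 5.30%).

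The genes tended to be found together in the same neurons. Among neuronal nuclei with 5000 to 10000 UMIs, 101 in WT and 34 in HET had a Fos UMI, and their median depth was near that of the nuclei without one (7577 and 7128 UMIs in WT). Junb was found in 38.6% of the WT nuclei with Fos and 9.75% of those without, Egr1 in 38.6% and 6.20%, Npas4 in 19.8% and 4.98% and Fosb in 10.9% and 0.377%. In HET the Junb shares were 20.6% and 3.13% and the Egr1 shares 17.6% and 2.77%. In the fibroblast cluster of HET, taken without a depth window, Nr4a1 was found in 61.9% of the 21 nuclei with Fos and 12.4% of the others, and Fosb in 47.6% and 1.77%. In this cluster of HET, 12 of the nuclei with Fos and 8 of those with Fosb were among the nuclei with the highest doublet scores. Nuclei share a library, so these shares describe the 2 animals.

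Other genes of the same program were taken from lists of further early transcription factors, early effectors, later response genes and upstream regulators. In neuronal nuclei, 4 of 20 other early transcription factors and 5 of 28 other early effectors were lower in HET by at least 2-fold (4.21% of all genes) and 0 were higher (5.3%), with medians of -0.35 and -0.32. Klf10, a Krueppel-like factor, had 454 and 166 UMIs (-1.30, -1.56 to -1.04), and Klf2 74 and 33 (-1.01). Rgs2, which shortens G protein signals, had 667 and 241 UMIs (-1.31) and Ier3 502 and 189 (-1.26). At the other end, Nr4a3 was higher in HET, at 83 and 123 UMIs (0.72, 0.31 to 1.14), and so was the kinase Sgk1 (0.38, 0.32 to 0.43), while Crem (0.03) and Per1 (0.17, -0.02 to 0.37) had intervals that included 0. Nr4a3 therefore pointed the other way from its relative Nr4a1.

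Of 15 later response genes, 1 was lower in HET neurons by at least 2-fold, near the 4.21% of all genes, and the median was -0.43. That gene was corticotropin-releasing hormone (Crh), at 350 and 126 UMIs (-1.32), with Cartpt next (-0.87), while inhibin beta A (Inhba, 0.37) and the prohormone convertase Pcsk1 (0.15, 0.03 to 0.26) were higher. Of 20 upstream regulators, 0 differed by 2-fold and the median was 0.05. Among these the largest values were 0.55 for Mef2c and -0.63 for Mapk3, which encodes the kinase ERK1, and serum response factor (Srf) was at 100 and 76 UMIs (-0.24, -0.69 to 0.20). Genes that are known to appear when tissue is dissociated warm were tested as well. There 6 of 10 had 20 UMIs, 2 were lower in HET by at least 2-fold (4.21% of all genes) and the median was -0.87, with Nfkbia at 304 and 156 UMIs (-0.81) and Nfkbiz at 586 and 432 (-0.29). The part of tissue handling in the difference was not tested.

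In the fibroblast cluster the genes of the same lists that passed 20 UMIs leaned toward HET. All 7 other early transcription factors with 20 UMIs were above 0 there, 3 by at least 2-fold, with a median of 0.55, and 11 of 12 early effectors were, 5 by at least 2-fold, with a median of 0.67. The minimum was set on both libraries together, so a gene high in HET alone could pass it. Below it genes went both ways, with Klf6 at 9 and 5 UMIs, Klf10 at 8 and 3 and Maff at 1 and 7. The part of the 77 HET nuclei with high doublet scores in these counts was not tested. Nr4a3 had 3 and 18 UMIs (2.72, 0.94 to 5.12) and the clock gene Per1 5 and 32 (2.81, 1.44 to 4.53). Klf2 (20 and 20 UMIs) was level, and 0 of 15 upstream regulators differed by 2-fold, where 5.18% of all genes were higher and 5.83% lower by that much.

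The genes whose levels followed the mean of the 10 most closely were sought over 61 groups, the subclusters of each library with at least 30 nuclei, among 13837 genes with at least 500 UMIs. The highest correlations across groups were those of Afdn (Pearson's r = 0.65), Ptgis (0.64), Tmtc4 (0.59), Prkag1 (0.59) and Nr4a2 (0.59), and groups of 1 library share their depth and free RNA. The 2 groups with the highest mean of the 10 genes were the fibroblast subcluster of HET and of WT. Without them r fell to 0.55, 0.57, 0.38, 0.48 and 0.41. Nr4a2, a further member of the nuclear receptor family of Nr4a1, was the one known early gene among the 5, at 5.23 and 3.62 CPM in neuronal nuclei and 47.9 and 141 CPM in the fibroblast cluster.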

How the data were processed

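Single-nucleus libraries of the 10x Chromium 3′ v3.1 kind were made from the brainstem of 1 WT and 1 HET mouse. The raw UMI counts per gene and nucleus are those the authors deposited, without normalization. Per the submitters' processing notes they came from Cell Ranger (version not given in the sources used here) on mm10, followed by Seurat 4.1. The authors had removed nuclei with few genes or many mitochondrial reads and called doublets before deposit. The percent values (mitochondrial and ribosomal shares of UMIs), the doublet score, the clusters, the subclusters and the reference labels of the nuclei were used as the authors deposited them. The caller behind the score is not named. 

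UMIs were summed over the nuclei of each cluster and library, and 70301390 UMIs in WT and 66176778 in HET set the depth. Sums were scaled to CPM, with exact Poisson 95% intervals, exact conditional intervals for ratios and Clopper-Pearson intervals for shares of nuclei. A gene entered counts and medians of a comparison with at least 20 UMIs in both sides together, and a difference of at least 2-fold is what "by at least 2-fold" counts. Where a median met a count of 0, 0.5 UMI was added to that gene. Clusters and subclusters needed 30 nuclei in a library. Where a count was 0, the level that 3 UMIs would give is stated as its limit. Shares were also computed as the expectation after thinning each nucleus to 1000 UMIs. With 1 library per genotype no model was fitted. The methods were tested on simulated data. The simulated ratios used Poisson counts, as the intervals assume, so clumping of UMIs within nuclei was not covered.

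All 10 genes are named, and from each further list the 2 genes with the highest and the 2 with the lowest HET over WT ratio over all nuclei among those with at least 200 UMIs (the list of dissociation genes had 2). The members and lists were chosen with earlier results of these data known. Alternatives changed the scale, the nuclei kept (at least 2000 UMIs, doublet scores, matching labels), the minimum UMIs, the weight of clusters, the clusters left out and the summary over genes. Python 3.11.15 was used with scipy 1.17.1, pandas 2.3.3, numpy 2.4.6 and matplotlib 3.10.9.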

Additional observations from a re-analysis of the deposited data

Results flagged for a closer look

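For 5 of the 7 genes with 20 UMIs in both, the HET over WT ratio was below 0 in neuronal nuclei and above 0 in the fibroblast cluster, with both intervals clear of 0, as it was for 1.34% of all 7846 such genes. Of the 5, Fos alone reached 20 UMIs in the WT fibroblast cluster, and the others, Fosb most of all, passed only with their HET counts. The log2 ratio of HET over WT was -1.80 in neurons and 1.10 in fibroblasts for Fos, -1.32 and 3.55 for Fosb, -1.98 and 1.47 for Junb, -1.28 and 0.92 for Egr1, and -0.56 and 2.26 for Nr4a1. With 1 library per genotype the difference between the cell types was not tested. Without the 5% of nuclei with the highest doublet scores of each library, the fibroblast values were 1.43 for Fos, 2.18 for Fosb, -0.30 for Junb, 0.68 for Egr1 and 1.63 for Nr4a1, so that Fos and Nr4a1 kept intervals above 0.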

How the results depend on the processing

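Alternative values of the 8 medians of the 10 genes were set against a band from the median lower to the median upper bound of the single-gene intervals. This band is not an interval of the median itself. Of 92 alternative values 85 stayed within the band, 3 moved out of it and 4 reversed. Of the 85, 1 had the other sign, the HET median of neuronal over glial, whose band includes 0 and which was -0.19 for summed UMIs. The vascular HET over WT median turned to -0.15 without the 5% of nuclei with the highest doublet scores, to -1.16 when at least 100 UMIs were required (2 genes left) and to -0.78 with the endothelial cluster alone. The WT median of neuronal over vascular turned to 0.13 with the endothelial cluster alone, and the HET median moved to -1.74 there and to -3.88 where reference labels had to match. The WT median of neuronal over glial moved to 0.48 for summed UMIs. The causes were not tested. Single-cluster settings and those without barcodes found in both libraries were chosen after seeing the data. So were the setting without neuron.6, neuron.8 and neuron.9 and the equal cluster weights of the vascular group. The HET over WT medians ranged from -1.32 to -1.17 in neuronal, -1.10 to -0.80 in all and -0.50 to -0.18 in glial nuclei. Of the values for single genes, 77 stayed within their interval, 3 of them with the other sign at values of at most 0.06 from 0, and 1, Fosb over all nuclei, moved further below 0 where labels had to match. Of 80 shares of nuclei, 74 were lower after thinning, as thinning removes UMIs, and 6 were 0 both ways. Replicates could not be left out, since each genotype had 1 library. No paired analysis was possible because each genotype had 1 library and replicate number 1 marks separate animals. Depth limits Fosb most, with 66 and 58 UMIs.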

Other observations

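Neurons that the reference panel labelled as activated did not hold more of these genes in WT. Their summed level of the 10 genes was 58.1 CPM (36.8 to 87.2) in 69 WT nuclei and 41.7 CPM (33.5 to 51.3) in 271 HET nuclei, against 88.1 CPM (85.7 to 90.5) and 39.1 CPM (37.4 to 40.9) in the other neurons.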
